A study of Mus musculus with 8 samples.

Results

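The expression of 10 astrocyte genes was followed across the hypothalamus of control mice, mice with diabetes induced by streptozotocin (STZ) and STZ mice given leptin. They were Gfap, Vim, Aqp4, Slc1a2, Slc1a3, Glul, S100b, Cd44, Timp1 and Osmr, chosen as markers of astrocytes and of astrocyte reactivity. Every probe that the platform's probe table assigned to them was taken, which gave 19 of the 25697 probes on the array and 10 of its 16593 named genes. Of these 19 probes, 13 were detected on at least 2 arrays, and each gene kept at least 1 of them. The brightest kept probe of every one of the 10 was detected on all 8 arrays.

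RNA from 8 hypothalamic samples was hybridised to Illumina bead arrays, with 1 array per sample. The groups were 2 controls labelled saline (replicates 4 and 5), 3 samples of STZ-induced type 1 diabetes (replicates 1, 2 and 3) and 3 samples of STZ diabetes with leptin, infused continuously and centrally (replicates 6, 7 and 8). All were male, 12 to 15 weeks old, with the strain given only as mixed. STZ, a toxin taken up by insulin-producing beta cells, was injected into the peritoneum, and the labels give no vehicle infusion for the saline or the STZ group. Whether the arrays came from separate animals is not stated, so p-values reflect the spread between these samples, which may be technical. STZ replicate 3 carries in its description the same number as STZ replicate 1, and it was taken as STZ from its title.

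Astrocytes take up glutamate from synapses, convert it to glutamine, buffer potassium and water at their end-feet, and in the hypothalamus they also sense nutrients and hormones. When brain tissue is inflamed or injured they become reactive: they make more of the intermediate filament proteins GFAP and vimentin and of secreted and surface proteins such as TIMP1 and CD44. Cytokines that signal through the gp130 receptor chain and STAT3, among them oncostatin M, are known inducers of this state. Several of these genes are not specific to astrocytes: Vim, Cd44, Timp1 and Osmr are also made by cells of the vessel wall and meninges, and Vim and Cd44 by immune cells.

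Signals are given as log2 of the background-corrected, quantile-normalised probe intensity, differences as log2 units with the moderated standard error of limma, and a gene passed at an adjusted p (Benjamini-Hochberg over 15494 kept probes) under 0.05. In bulk tissue, fewer cells of a type and less RNA per cell cannot be told apart. On each array 13608 to 14776 probes were detected (53 to 57.5%), and arrays correlated at 0.992 within saline, 0.969 to 0.988 within STZ, 0.982 to 0.988 within STZ with leptin and 0.947 to 0.977 between groups. The hypothalamic peptide genes Pmch, Hcrt, Oxt, Avp, Trh, Gal, Cartpt and Ghrh were detected on all 8 arrays. Some libraries stood apart in transcripts of neighbouring tissue. STZ replicate 2 held the pituitary hormone genes Gh and Prl at 14.98 and 14.93, against at most 6.71 and 9.39 on the other arrays. The choroid plexus gene Ttr lay at 8.74 in STZ replicate 1 and at 9.62 to 11.97 with leptin, against 13.71 to 14.84 on the other 4 arrays. Of 7 choroid plexus and 6 pituitary markers 0 passed in any comparison in limma (0 to 6 and 0 at an unadjusted p under 0.05). The summed choroid plexus markers ran from 15289 to 31734 in saline, 1811 to 32221 in STZ and 1977 to 5260 with leptin. With leptin against saline their median was -2.32, and 6 of 7 had an unadjusted p under 0.05 in limma. Where all leptin arrays share such a difference, tissue content and leptin cannot be told apart. Results are also given without single arrays, which does not address a difference shared by a group.

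The promoters of the genes that passed in diabetes were searched for the cores of STAT and AP-1 factors, which are known to act on genes of reactive astrocytes. RefSeq promoter windows of 300 bases (250 before to 50 after the annotated start, assembly GRCm38.p6) were held for 9 of the 10 genes. Shown are Gfap (chr11:102897151-102897450, minus strand) and Osmr (chr15:6874264-6874563, minus strand), which each hold 1 of the 2 motifs, and Timp1 (chrX:20869916-20870215, plus strand), which had the largest difference and holds neither. Capitals mark the motif.
Gfap: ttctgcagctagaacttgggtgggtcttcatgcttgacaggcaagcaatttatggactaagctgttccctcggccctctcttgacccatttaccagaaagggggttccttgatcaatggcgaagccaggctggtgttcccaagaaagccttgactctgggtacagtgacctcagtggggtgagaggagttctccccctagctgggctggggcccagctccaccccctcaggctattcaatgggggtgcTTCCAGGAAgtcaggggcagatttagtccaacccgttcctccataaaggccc
Osmr: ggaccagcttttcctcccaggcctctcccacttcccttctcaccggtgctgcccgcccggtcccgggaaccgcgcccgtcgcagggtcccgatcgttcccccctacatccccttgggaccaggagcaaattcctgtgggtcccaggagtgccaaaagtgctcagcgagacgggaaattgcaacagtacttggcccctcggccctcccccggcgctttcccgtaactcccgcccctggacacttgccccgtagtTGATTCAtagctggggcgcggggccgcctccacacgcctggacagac
Timp1: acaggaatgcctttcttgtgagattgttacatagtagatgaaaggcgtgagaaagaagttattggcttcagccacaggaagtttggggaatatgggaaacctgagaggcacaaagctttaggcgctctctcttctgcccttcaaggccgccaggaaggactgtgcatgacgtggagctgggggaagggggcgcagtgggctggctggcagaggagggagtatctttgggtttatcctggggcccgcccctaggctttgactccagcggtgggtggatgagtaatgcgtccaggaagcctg
The motif in Gfap matches TTCNNNGAA, the core recognised by STAT factors, and runs from 2 bases before the annotated start to base 7 after it. The motif in Osmr matches TGANTCA, an AP-1 core, at bases 4 to 10 after the start. Searched on both strands, TTCNNNGAA was present in 8.3% of 32851 promoter windows and TGANTCA in 7.81%, and the windows of Vim and Cd44 held neither. The motifs were chosen with results known, and a match describes these letters, not a site in use.

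In STZ against saline, 5 of the 10 genes rose and 0 fell. The filament genes Gfap and Vim, the hyaluronan receptor gene Cd44, the metalloproteinase inhibitor gene Timp1 and the oncostatin M receptor gene Osmr rose by 3.11- to 24.2-fold. The water channel gene Aqp4, the glutamate transporter genes Slc1a2 and Slc1a3, the glutamine synthetase gene Glul and the calcium-binding protein gene S100b did not pass. Over all genes, 4.34% passed upward and 0.271% downward (4.62% of 10703 either way). The median difference of the 10 was 0.95, beside -0.08 over all genes. In 6 of the 10 every STZ array lay above both saline arrays and in 2 every STZ array lay below them, where 13% and 19.1% of all genes did so.

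With leptin against STZ, Gfap and Vim fell, Glul and S100b rose, and the other 6 did not pass. Over all genes 3.7% passed downward and 2.05% upward (5.75% either way). The median of the 10 was -0.61, beside 0.03 over all genes, and the groups did not overlap in 3 genes downward and 2 upward, beside 11.8% and 12% of all genes. With leptin against saline 0 of the 10 passed in limma (1.7% of all genes passed upward and 0.402% downward, 2.1% either way), although 2, Timp1 and Cd44, had an unadjusted p under 0.05. Their median there was 0.39, beside -0.03, and in 5 genes every leptin array lay above both saline arrays (14.7% of all genes) and in 0 below (19.8%). These comparisons share arrays, so a high STZ array enters 2 of them with opposite sign.

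**Figure D1:**
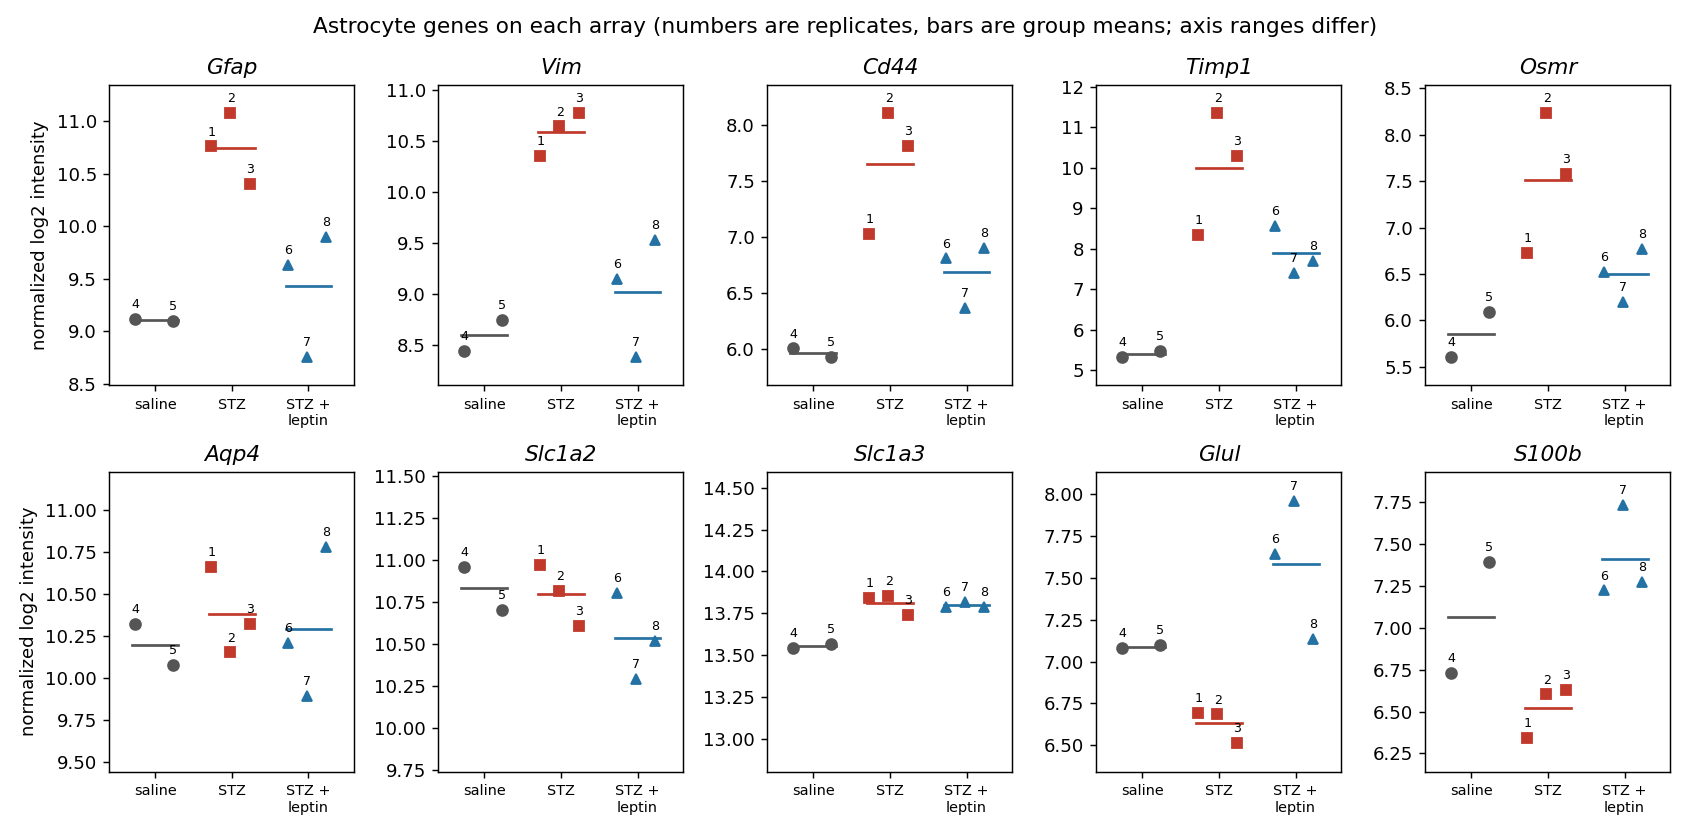
Normalized log2 intensity of the brightest kept probe of each of the 10 genes (vertical axes, with ranges that differ between panels) on each array, by group. Points carry the replicate number and bars are group means. For Gfap, Vim and Cd44 the 3 STZ arrays lie above all others, for Glul and S100b they lie below all others, and leptin replicate 7 is the lowest leptin array in 7 panels.

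Gfap encodes the astrocyte's main intermediate filament protein, and its transcript is the usual mark of reactive astrocytes. It read 9.12 and 9.10 in saline replicates 4 and 5, 10.76, 11.08 and 10.40 in STZ replicates 1, 2 and 3, and 9.63, 8.76 and 9.90 in leptin replicates 6, 7 and 8. All 3 STZ arrays lay above every other array, and leptin replicate 7 lay below both saline arrays. The rise in STZ was 1.63 ± 0.32 (3.11-fold, adjusted p = 0.021 in limma, n = 3 and 2) and the difference with leptin was -1.32 ± 0.29 (adjusted p = 0.031, n = 3 and 3). Against saline the leptin group differed by 0.32 ± 0.32, with a 95% interval of -0.41 to 1.04. The rise did not pass without STZ replicate 2 (1.47, adjusted p = 0.072) or without saline replicate 4 or 5 (adjusted p = 0.16 each), and the fall with leptin passed only without leptin replicate 7 (0.049) or 8 (0.021) among the 8 fits that each left out 1 array, its adjusted p otherwise lying between 0.055 and 0.10.

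Vim encodes vimentin, the filament partner of GFAP in reactive astrocytes and in tanycytes, the ependymal cells of the ventricle wall. Its values were 8.45 and 8.75 in saline, 10.35, 10.64 and 10.77 in STZ, and 9.15, 8.39 and 9.53 with leptin, in the same order of replicates. STZ again lay above all other arrays, and the leptin arrays spread from below both saline arrays to above them. Vim rose by 1.99 ± 0.30 in STZ (3.97-fold, adjusted p = 0.0052 in limma) and fell by 1.57 ± 0.27 with leptin against STZ (adjusted p = 0.011), with 0.42 ± 0.30 left against saline (95% interval -0.26 to 1.11). Of the 10 genes it kept its calls most often: the rise missed only without saline replicate 4 (adjusted p = 0.080) and the fall only without STZ replicate 3 (0.056) when single arrays were left out.

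Of 8 other intermediate filament genes 7 were measured, 0 passed in any of the 3 comparisons in limma (1 in each had an unadjusted p under 0.05), and their median in STZ against saline was -0.09. Nes, which encodes nestin, a filament protein of neural stem cells and tanycytes, differed by -0.59 ± 0.28 in STZ against saline (adjusted p = 0.40) and by -0.08 ± 0.25 with leptin against STZ. Tanycyte and ependymal markers, with 7 of 12 measured, gave 0 that passed in STZ against saline or with leptin against STZ in limma (1 and 2 at an unadjusted p under 0.05), and their summed level ran from 4969 to 5029 in saline, 4351 to 5541 in STZ and 4981 to 6234 with leptin (linear intensity units). Their defining gene Rax was below the detection filter.

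Cd44 encodes a surface receptor for hyaluronan and osteopontin. A single probe of its 6 was detected, on all 8 arrays, and the other 5 were detected on 0 arrays. That probe read 6.01 and 5.93 in saline, 7.03, 8.10 and 7.81 in STZ, and 6.81, 6.37 and 6.90 with leptin. The 3 groups did not overlap: saline was lowest, leptin intermediate and STZ highest. Cd44 rose by 1.68 ± 0.30 in STZ (3.20-fold, adjusted p = 0.013 in limma), and with leptin it differed from STZ by -0.95 ± 0.27 (adjusted p = 0.079) and from saline by 0.72 ± 0.30 (adjusted p = 0.38). The rise missed without saline replicate 4 or 5 (adjusted p = 0.11 and 0.12) and without STZ replicate 3 (0.063). Without STZ replicate 1, the lowest STZ array for this gene, the leptin difference was -1.27 with an adjusted p of 0.0065.

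Timp1, a secreted inhibitor of matrix metalloproteinases that reactive astrocytes make, had the largest difference of the 10. Its brighter probe read 5.33 and 5.47 in saline, 8.35, 11.35 and 10.29 in STZ, and 8.57, 7.41 and 7.71 with leptin. The STZ arrays spread over 3.00 log2 units, replicate 1 lying below leptin replicate 6, while every STZ and leptin array lay above both saline arrays. Timp1 rose by 4.59 ± 0.72 in STZ (24.2-fold, adjusted p = 0.0062 in limma), and by 3.26 with the authors' processed values (9.58-fold, adjusted p = 0.022). Both saline values lay near background, so the size of the fold is uncertain. Their detection p was 0.036 and 0.018, and the lowest detected signals of those arrays were 5.20 and 5.19. With leptin it differed from STZ by -2.10 ± 0.64 (adjusted p = 0.11) and from saline by 2.49 ± 0.72 (5.64-fold, adjusted p = 0.17). The second probe gave 4.63, -2.17 and 2.46 for the 3 differences. The rise ran from 3.93 without STZ replicate 2 to 5.43 without STZ replicate 1, and it missed without saline replicate 4 or 5 (adjusted p = 0.072 and 0.060). Without STZ replicate 1 the difference of leptin from STZ was -2.94 (adjusted p = 0.0044) and that of leptin from saline passed as well (2.49, adjusted p = 0.018). Without STZ replicate 2 the difference of leptin from STZ was -1.43 (adjusted p = 0.22).

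Osmr encodes the receptor chain that pairs with gp130 to bind oncostatin M. It read 5.61 and 6.09 in saline, 6.72, 8.23 and 7.57 in STZ, and 6.52, 6.19 and 6.77 with leptin. STZ replicate 1 fell within the leptin range, and every STZ and leptin array lay above both saline arrays. The rise in STZ of 1.66 ± 0.39 (3.16-fold) passed narrowly, with an adjusted p of 0.047 in limma. Without STZ replicate 1 it was 2.06 (adjusted p = 0.0039), and it did not pass without any other single array (adjusted p = 0.058 to 0.37) or with the authors' processed values (0.98, 0.084). With leptin Osmr differed from STZ by -1.01 ± 0.34 (adjusted p = 0.14, and 0.016 without STZ replicate 1) and from saline by 0.65 ± 0.39 (adjusted p = 0.60).

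With the authors' processed values, the rise of Cd44 was 1.01 (adjusted p = 0.025 in limma), against 1.68 above. In saline, the signals of Cd44 and Osmr were low as well (5.93 to 6.01 and 5.61 to 6.09). The lowest detected signals of those arrays were 5.20 and 5.19, so the size of both folds is uncertain too. Cd44, Timp1 and Osmr shared an order within STZ, with replicate 1 lowest and replicate 2 highest, as far as 3 arrays can show. STZ replicate 1 is the STZ array with low Ttr and STZ replicate 2 the one with pituitary transcripts, and the part of either in these levels was not tested. Gfap and Vim did not follow that order: STZ replicate 3 was the lowest for Gfap and the highest for Vim.

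Aqp4 encodes the water channel of astrocyte end-feet. It read 10.32 and 10.08 in saline, 10.66, 10.15 and 10.32 in STZ, and 10.21, 9.89 and 10.78 with leptin, so that the groups overlapped throughout. Its difference was 0.18 ± 0.26 in STZ against saline (95% interval -0.41 to 0.77) and -0.09 ± 0.23 with leptin against STZ (-0.62 to 0.44), a sign that turned without STZ replicate 1 or leptin replicate 7. Among 7 measured genes of the list for anchoring Aqp4 and for potassium and water transport 0 passed in limma in any comparison (1 or 2 with an unadjusted p under 0.05 in each), with a median of -0.19 in STZ against saline.

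Slc1a2 and Slc1a3 encode GLT-1 and GLAST, the transporters that clear glutamate from the synaptic cleft. The brightest of 4 Slc1a2 probes read 10.96 and 10.70 in saline, 10.97, 10.82 and 10.61 in STZ, and 10.80, 10.29 and 10.52 with leptin. The groups overlapped, and STZ differed from saline by -0.03 ± 0.19 (95% interval -0.47 to 0.40), a sign that turned with cyclic loess or without STZ replicate 3 or saline replicate 4. A further probe gave -0.00 in STZ against saline and -0.13 with leptin against STZ. Another probe stood at 7.17 in leptin replicate 6 and at 5.32 and 5.16 in the other leptin arrays, and the remaining probe was detected on 1 array.

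The probe of Slc1a3 read 13.54 and 13.57 in saline, 13.84, 13.85 and 13.74 in STZ, and 13.79, 13.82 and 13.79 with leptin. Every STZ and leptin array lay slightly above saline, by 0.26 ± 0.13 in STZ (adjusted p = 0.41 in limma, 95% interval -0.03 to 0.54) and 0.24 ± 0.13 with leptin, and under median centring the STZ difference was 0.01. Leptin differed from STZ by -0.01 ± 0.11, which became 0.16 under median centring.

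Glul encodes glutamine synthetase, which turns the glutamate taken up into glutamine. It read 7.08 and 7.10 in saline, 6.70, 6.68 and 6.51 in STZ, and 7.64, 7.96 and 7.14 with leptin. No groups overlapped: STZ was lowest and leptin highest, although leptin replicate 8 lay only just above saline. The difference of STZ from saline was -0.46 ± 0.22 (adjusted p = 0.40), and Glul rose by 0.95 ± 0.20 with leptin against STZ (1.93-fold, adjusted p = 0.026 in limma), with 0.49 ± 0.22 against saline (adjusted p = 0.43). Left out singly, STZ replicate 1 and leptin replicate 8 left the rise past the threshold (adjusted p = 0.040 and 0.0051), and the other 6 arrays did not (0.053 to 0.10, the highest without STZ replicate 3).

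S100b, a calcium-binding protein of astrocytes and some oligodendrocyte-lineage cells, read 6.73 and 7.40 in saline, 6.34, 6.60 and 6.63 in STZ, and 7.22, 7.73 and 7.28 with leptin. STZ lay below every other array, and saline and leptin overlapped. The difference of STZ from saline was -0.54 ± 0.23 (adjusted p = 0.34), and it was -0.21 without saline replicate 5 and -0.87 without saline replicate 4. S100b rose by 0.89 ± 0.21 with leptin against STZ (1.85-fold, adjusted p = 0.043 in limma). That call held without saline replicate 4 or 5 (adjusted p = 0.036 each) and was lost without any 1 of the STZ or leptin arrays (0.068 to 0.14). With the authors' processed values the rises with leptin were 0.61 for Glul and 0.55 for S100b (adjusted p = 0.036 and 0.0496 in limma). Each of these genes rests on a single probe of modest signal. Raw intensity was 162.8 to 311.8 for Glul and 169 to 276.3 for S100b, beside array medians of 117.2 to 127.5. In leptin replicate 7, Glul, S100b and Slc1a3 were the highest of their group and the other 7 genes the lowest.

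**Figure D2:**
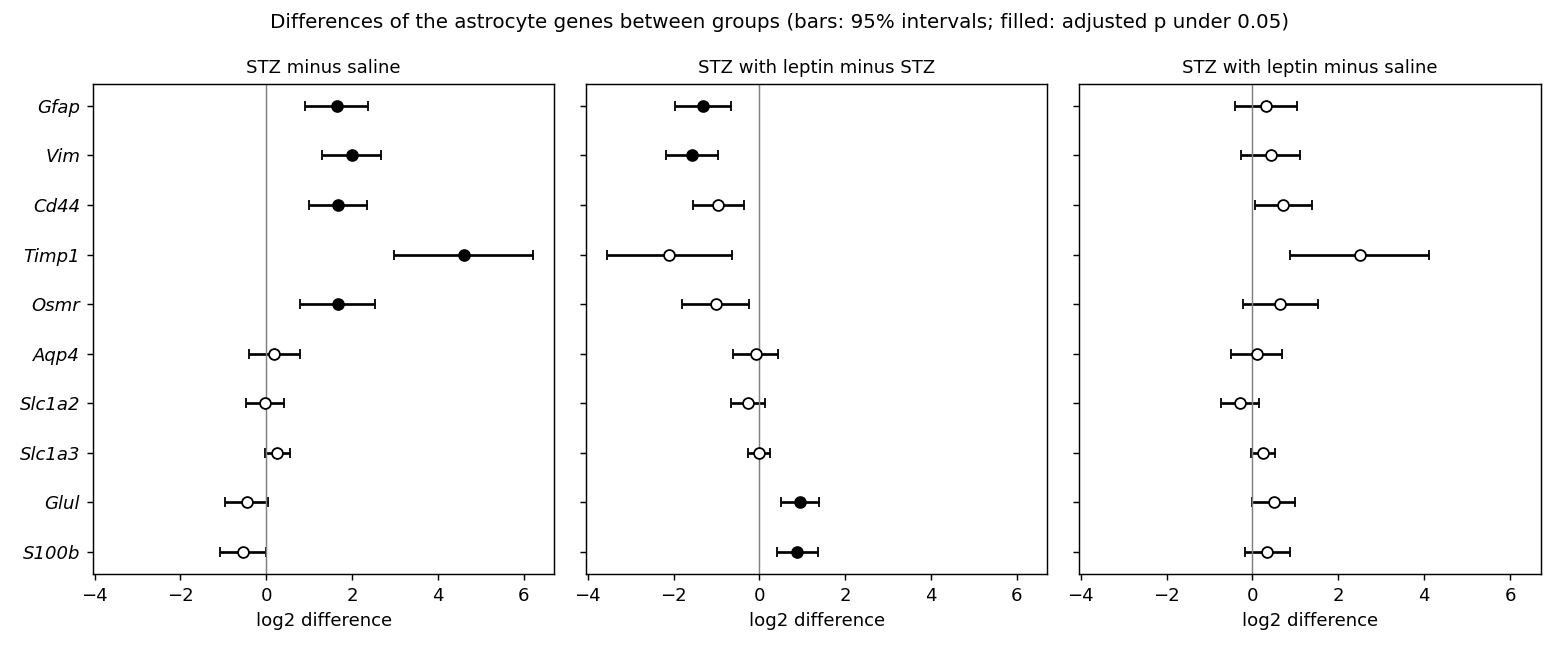
Log2 differences of the 10 genes (horizontal axis) in the 3 comparisons, with 95% intervals as bars and filled points where the adjusted p in limma was under 0.05. Gfap, Vim, Cd44, Timp1 and Osmr are filled on the right in STZ against saline, 4 genes are filled with leptin against STZ, and 0 with leptin against saline.

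The genes around the members give the setting. Over all genes 4.34% passed upward and 0.271% downward in STZ against saline, and 2.05% and 3.7% with leptin against STZ. General astrocyte markers outside the 10 stayed near the median of all genes. Of 26 listed, 18 were measured and 0 passed in STZ against saline in limma (1 at an unadjusted p under 0.05), with differences from -0.49 to 0.18 and a median of -0.06. Aldh1l1, a folate enzyme gene used as a marker of nearly all astrocytes, read 8.19 and 8.33 in saline, 8.46, 8.52 and 8.32 in STZ, and 8.50, 8.21 and 8.50 with leptin. Those groups overlapped, with a difference of 0.18 ± 0.15 in STZ against saline (adjusted p = 0.67). Gja1, the gap junction gene of astrocytes, differed by 0.03 ± 0.15 (adjusted p = 0.95), a sign that turned under median centring (-0.22) and without saline replicate 5. With leptin against STZ 1 of the 18 passed: Gpc5, a cell-surface proteoglycan gene, rose by 0.77 ± 0.13 (adjusted p = 0.011), and by 0.59 with the mean of its probes (adjusted p = 0.14). The summed level of the 18 was 73826 to 78204 in saline, 73414 to 85997 in STZ and 71871 to 79859 with leptin.

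Genes that are known to rise in reactive astrocytes moved in part with Gfap and Vim. Of 7 measured genes induced in both inflammatory and ischaemic models, 4 rose in STZ and 0 fell (median 1.89), beside 4.34% and 0.271% of all genes. Lcn2, a secreted iron-binding protein, was undetected in saline, read 12.02, 14.55 and 14.29 in STZ and 12.23, 10.40 and 11.51 with leptin, and lay at least 345-fold above saline in STZ (adjusted p = 0.00017 in limma). The lower bound takes each saline array's lowest detected signal in place of the probe's own where that is lower, and like every such bound here it holds for the background-corrected values only. Cxcl10, a chemokine of interferon responses, lay at least 68.5-fold above saline, Cp, the copper oxidase ceruloplasmin, rose by 2.54 ± 0.37, and Aspg, an asparaginase, rose by 1.89 ± 0.34. With leptin against STZ, Cxcl10 fell by 3.10 ± 0.37, Aspg fell by 2.05 ± 0.31 and Cp fell by 1.59 ± 0.33. Lcn2 overlapped between STZ and leptin and did not pass there. Against saline, Lcn2 and Cxcl10 remained higher with leptin (at least 72.8-fold and 8.01-fold). With the authors' processed values the measured folds were smaller, at 131 for Lcn2 and 27.3 for Cxcl10 in STZ against saline and 28.8 and 3.88 with leptin against saline, and all 4 differences passed. Aspg lost its rise without saline replicate 4 or 5 (adjusted p = 0.11 and 0.13), and Cp lost its fall without STZ replicate 2 or 3 or leptin replicate 6 or 7 (0.075 to 0.091).

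Of the A1 set, named for astrocytes exposed to inflammatory stimuli, 8 of 13 genes were measured. In STZ 5 of the 8 rose and 0 fell (median 2.73), beside 4.34% and 0.271% of all genes. With leptin against STZ 4 fell, beside 3.7% of all genes. Gbp2, an interferon-induced GTPase, read 8.19 and 8.38 in saline, 13.10, 13.44 and 13.11 in STZ, and 10.45, 9.62 and 10.37 with leptin. Its groups did not overlap. On this brighter of its 2 probes Gbp2 rose by 4.94 ± 0.25 in STZ and fell by 3.07 ± 0.22 with leptin (adjusted p = 2.9e-05 and 0.00011). The others that rose were the immunoproteasome subunit Psmb8 (3.26), the class I genes H2-T23 (3.02) and H2-D1 (2.72) and the complement inhibitor Serping1 (2.73), all of which interferons also induce in other cells. The value of H2-T23 is that of its brighter probe, and a second probe, detected on 3 arrays, gave 0.33 ± 0.21 in STZ against saline (adjusted p = 0.53) and 4.02 ± 0.18 with leptin against STZ (adjusted p = 5.3e-06 in limma). The mean of both probes gave 1.67 in STZ against saline. Of the A2 set, named for ischaemia, 10 of 12 were measured and 3 rose, beside 4.34% of all genes. The 3 were Cd14, a lipopolysaccharide co-receptor of myeloid cells (3.58 ± 0.47), Tgm1, a transglutaminase (at least 3.32-fold), and Cd109 (at least 1.45-fold). The median of the set was 0.80, and 0.52 with the 6 genes undetected in saline at their bound. Tgm1 was lost without saline replicate 4 or 5 (adjusted p = 0.073 and 0.053), and Cd109 passed in STZ without STZ replicate 1 alone (0.0036, against 0.061 to 0.34 without each of the others) and not with the authors' processed values (0.13) or on its second probe (0.15 ± 0.22, adjusted p = 0.82). Cd109 also fell with leptin, at least 1.44-fold (adjusted p = 0.025), a call lost without STZ replicate 2 or 3 or any leptin array (0.052 to 0.10).

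**Figure D3:**
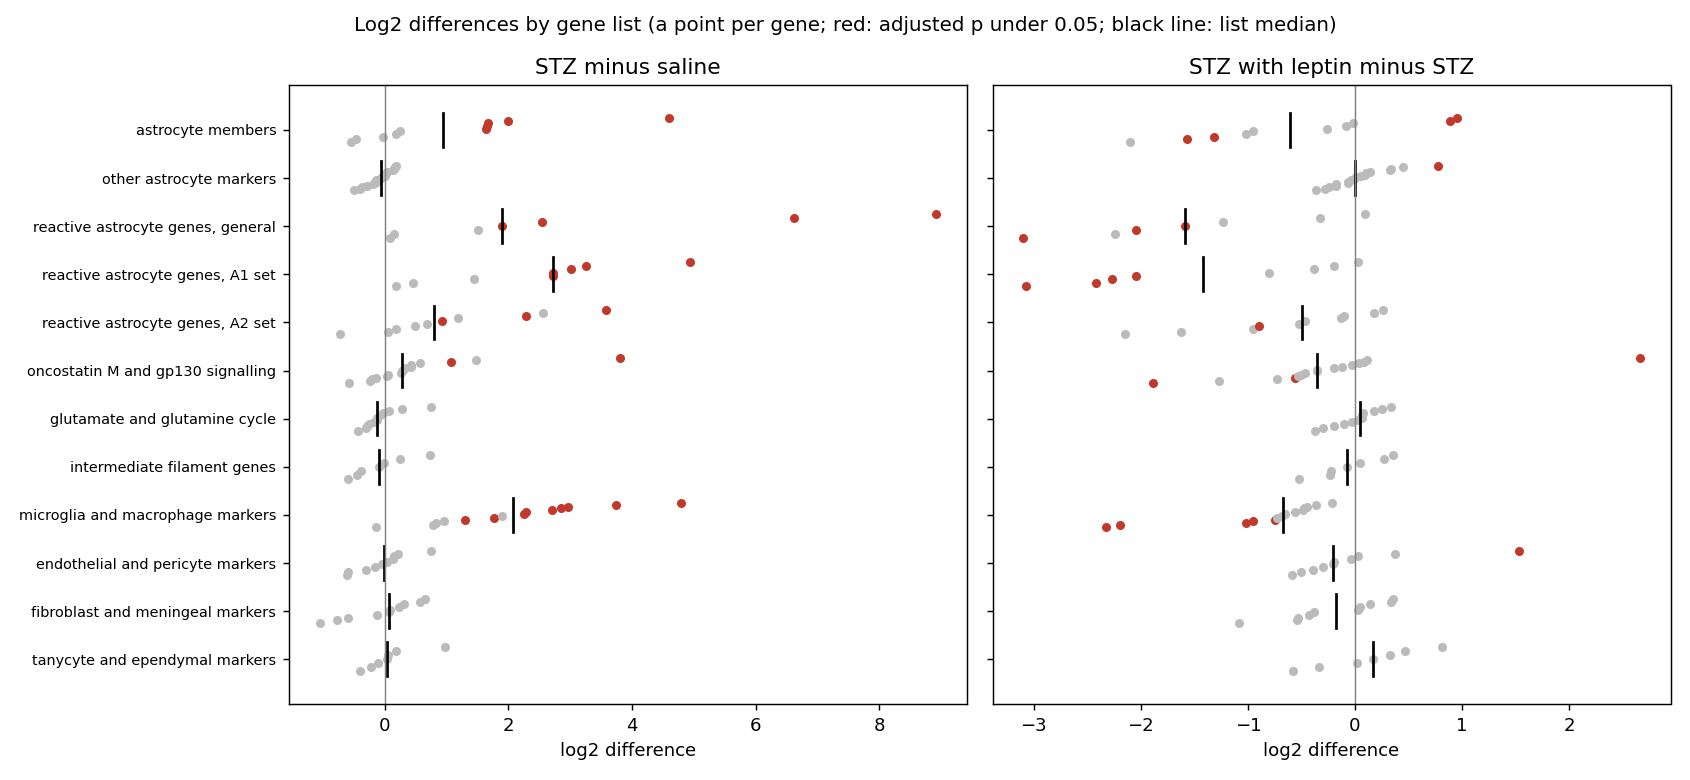
Log2 differences in STZ against saline (left) and with leptin against STZ (right) for the measured genes of 12 lists, a point per gene, red where the adjusted p in limma was under 0.05, with list medians as black lines. Of the other astrocyte markers 0 of 18 are red on the left. In the reactive lists 4 of 7, 5 of 8 and 3 of 10 are, and 9 of 14 among markers of microglia and macrophages. Over all genes 4.62% passed in that comparison.

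For Osmr, the ligand, partner chain and targets were examined. Of 20 listed genes of oncostatin M and gp130 signalling 16 were measured. In STZ 2 of them rose and 0 fell, beside 4.34% and 0.271% of all genes. The median was 0.29, and 0.23 with 4 undetected genes at their bound. Osm, the ligand's gene, was undetected in saline, read 5.63, 7.16 and 6.54 in STZ and 5.10, 5.19 and 5.23 with leptin, where it was detected on 1 array. Every STZ array lay above every leptin array, by differences that missed the threshold (at least 2.38-fold over saline, adjusted p = 0.060, and -1.27 ± 0.32 with leptin, adjusted p = 0.058), and both passed without STZ replicate 1 (0.0019 and 0.0028). Socs3, the STAT3-induced inhibitor of gp130 and leptin receptors, read 6.59 and 6.74 in saline, 9.68, 11.08 and 10.64 in STZ, and 8.68, 8.62 and 8.43 with leptin. Without overlap between groups it rose by 3.80 ± 0.34 in STZ, fell by 1.89 ± 0.30 with leptin and stayed 1.91 ± 0.34 above saline (adjusted p = 0.00026, 0.0079 and 0.022). The last of these calls was lost without saline replicate 4 or 5 (0.22 and 0.16), STZ replicate 3 (0.052) or leptin replicate 6 or 7 (0.075 and 0.058).

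Stat3 rose by 1.08 ± 0.22 in STZ (adjusted p = 0.028 in limma, and 0.074, 0.14 and 0.25 without STZ replicate 2, saline replicate 4 and saline replicate 5). Tyk2, a Janus kinase gene, fell by 0.56 ± 0.12 with leptin (adjusted p = 0.028), a call lost without any 1 array other than STZ replicate 1 (0.060 to 0.11). Stat3 differed by -0.72 ± 0.20 with leptin against STZ (adjusted p = 0.076 in limma). Its other kept probes gave -0.88 and -0.59 there (adjusted p = 0.029 and 0.15). Il6st, which encodes gp130, read 5.30 and 4.99 in saline, 5.49, 5.72 and 5.11 in STZ, and 8.29, 8.10 and 7.92 with leptin. Saline and STZ overlapped and the leptin arrays lay far above both, by 2.66 ± 0.19 over STZ (adjusted p = 8.5e-05). That probe is 1 of 113 that stood at one level in saline and STZ (within 0.5) and at another with leptin (at least 1 away), and the second probe of H2-T23 but 0 probes of the 10 members were among them. The source of that pattern was not tested. Lifr, the other partner of gp130, was detected on 3 arrays and differed by -0.19 ± 0.20 with leptin against STZ.

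Of 12 measured glutamate and glutamine genes other than the members (of 15 listed) 0 passed in any comparison in limma (0 or 1 at an unadjusted p under 0.05), and their medians were -0.12 in STZ against saline and 0.05 with leptin against STZ. Slc38a3, the transporter that exports glutamine from astrocytes, differed by -0.17 ± 0.16 and 0.07 ± 0.14. Of 9 measured S100 and RAGE genes 0 passed in limma (5 and 3 at an unadjusted p under 0.05 in the 2 comparisons that involve STZ). S100a8, a gene of neutrophils and myeloid cells, was the most varied, at 5.91, 11.93 and 9.66 in STZ and undetected in saline.

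Partners of Cd44 and relatives of Timp1 moved in part. Of 5 measured Cd44 ligands and partners (of 11 listed), Msn, which encodes moesin, a link from CD44 to actin, rose by 1.91 ± 0.23 in STZ and fell by 1.44 ± 0.21 with leptin (adjusted p = 0.0014 and 0.0044), and its values in the order used above were 5.73 and 5.67, then 7.76, 7.62 and 7.45, then 6.20, 5.74 and 6.58. Ptpn6, a phosphatase gene of blood-derived and microglial cells, rose by 2.90 ± 0.22 and fell by 1.11 ± 0.20 (the fall at 0.051 and 0.052 without STZ replicates 2 and 3). Has1, a hyaluronan synthase gene, rose by 1.23 ± 0.25 with leptin (adjusted p = 0.023, and 0.057 to 0.077 without STZ replicate 2 or leptin replicate 6 or 7).

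The other inhibitor genes Timp2 and Timp3 did not pass, at -0.17 ± 0.14 and -0.09 ± 0.15 in STZ against saline. Of 12 measured genes of that list, Mmp3, the stromelysin gene, was undetected in saline and at least 10.1-fold higher in STZ (adjusted p = 0.021 in limma). It read 6.63, 9.72 and 9.21 in STZ and 6.44, 5.51 and 5.39 with leptin, a difference of -2.74 ± 0.69 (adjusted p = 0.054). The other kept probes of Mmp3, each detected on 4 arrays, gave -2.50 and -2.91 there (adjusted p = 0.037 and 0.027). Like Timp1, Mmp3 was lowest in replicate 1 and highest in replicate 2 of STZ, and its rise was lost without saline replicate 4 or 5 or STZ replicate 2 or 3 (adjusted p = 0.056 to 0.17) and with the authors' processed values (5.24-fold, 0.054). Mmp2, gelatinase A, rose by 0.79 ± 0.18 in STZ (adjusted p = 0.046, and 0.066 to 0.43 without any 1 array other than STZ replicate 1) and fell by 0.99 ± 0.16 with leptin (0.0084). Mmp14, which activates it, fell by 0.84 ± 0.14 with leptin (0.0089), and Mmp12, a macrophage elastase, fell at least 1.23-fold (0.049, lost without either saline array or any leptin array, 0.073 to 0.14). The median of the list was 0.20 in STZ against saline and -0.32 with leptin against STZ (0.13 and -0.15 with undetected genes at their bound).

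Markers of microglia and macrophages moved in the same comparisons as the astrocyte members. Of 14 measured (of 18 listed), 9 rose in STZ and 0 fell (4.34% and 0.271% of all genes did), with a median of 2.08. With leptin against STZ 5 of the 14 fell (3.7% of all genes did). With single arrays left out 8 to 11 rose, and 2 to 4 fell except without STZ replicate 1, where 8 did. C1qc, a complement subunit, rose by 2.97 ± 0.18 and Fcrls, a microglial receptor, rose by 3.75 ± 0.33, and against saline 7 stayed higher with leptin (3 to 8 with single arrays left out, the lowest without saline replicate 4). The fall of C1qc with leptin passed in 1 of those 8 fits (adjusted p = 0.0098 to 0.11) and that of Ly86 in 4 (0.0065 to 0.080). Their summed level was 7345 to 7615 in saline, 31588 to 35491 in STZ and 16808 to 20556 with leptin, without overlap. Tmem119, a defining marker of resident microglia, read 7.87 and 8.06 in saline, 9.45, 9.27 and 9.07 in STZ and 8.28, 8.56 and 8.09 with leptin. P2ry12, a receptor of resting microglia, was the 1 marker of the list that passed downward with leptin against saline. With leptin it differed by -2.45 ± 0.22 from saline and by -2.32 ± 0.20 from STZ (adjusted p = 0.00057 and 0.00028 in limma). Its probe is another of the 113 probes. The part of these cells in the levels of Vim, Cd44, Timp1 and Osmr was not tested.

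Endothelial and pericyte markers summed to 4456 to 4898 in saline, 4602 to 6692 in STZ and 4473 to 4881 with leptin, with 0 of 10 passing in STZ against saline in limma (2 at an unadjusted p under 0.05). Fibroblast and meningeal markers summed to 10469 to 12510, 5084 to 13906 and 4660 to 15053, with 0 of 10 passing in STZ against saline (0 at an unadjusted p under 0.05). Of the endothelial and pericyte list 1 gene passed with leptin, Slco1a4, which was undetected in saline and STZ. It lay at least 2.40-fold above STZ and 2.22-fold above saline (adjusted p = 0.00085 and 0.0021 in limma). Its probe is another of the 113 probes. Of 9 oligodendrocyte markers Enpp6 fell by 1.02 ± 0.15 in STZ and rose by 1.08 ± 0.13 with leptin (adjusted p = 0.0041 and 0.0021), and its fall was lost without saline replicate 4 or 5 (0.051 and 0.062). Of 9 neuron markers 0 passed in STZ (2 at an unadjusted p under 0.05) and Map2 rose by 0.54 ± 0.13 with leptin (0.048), a call kept in 1 of the 8 fits that left out an array, the one without STZ replicate 1. Of 6 blood cell markers 1 rose in STZ, Cd3e, a T cell gene (0.91 ± 0.21, adjusted p = 0.043), which passed without STZ replicate 1 and in none of the 7 fits that left out another array (0.068 to 0.37).

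**Figure D4:**
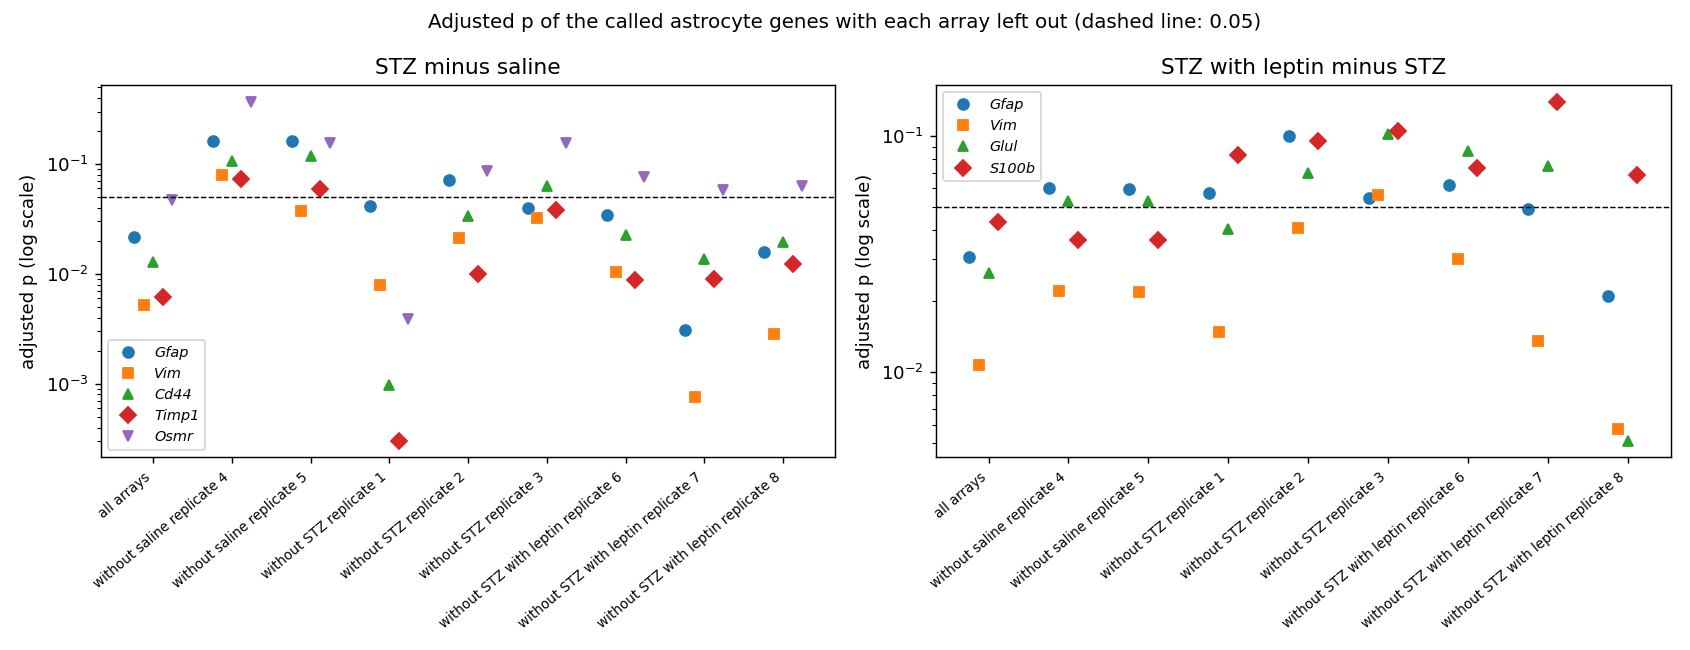
Adjusted p in limma (vertical axis, log scale) of the astrocyte genes that passed, with all arrays and with each of the 8 arrays left out (horizontal axis), in STZ against saline (left) and with leptin against STZ (right). The dashed line is 0.05. Leaving out a leptin array on the left or a saline array on the right changes the normalisation, filter and shared spread, not the arrays compared. Vim lies under it in 7 of 8 fits on each side, while Osmr does so in 1 of 8 on the left and S100b in 2 of 8 on the right.

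Leaving out arrays moved the counts as well. In STZ against saline the number of members that passed was 0 without saline replicate 4, 1 without saline replicate 5, 3 without STZ replicate 2 or 3 and 4 or 5 otherwise, always upward. With leptin against STZ it was 0 without STZ replicate 3, 1 without STZ replicate 2 or leptin replicate 6, 2 without saline replicate 4 or 5 or leptin replicate 7, 3 without leptin replicate 8 and 5 without STZ replicate 1. In the same fits the number that passed over all kept probes moved too. In STZ against saline it was 1032, 463 and 425 without STZ replicates 1, 2 and 3, against 664 with all arrays. With leptin against STZ it was 1234, 548 and 484, against 870. With 1 saline array left, that lone array is assumed to vary as the other groups do.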

How the data were processed

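Total RNA (300 ng per sample) of 8 hypothalamic samples was amplified and hybridised to Illumina bead arrays, per the labels' protocols. The deposited raw table holds a linear bead intensity per probe and array, without background subtraction or normalization, and per the file headers a detection p-value beside each. The authors' processed values are on a log2 scale, with a median of 6.90 on every array; the software behind them is not named in the labels or headers. They served as an alternative, and the probe ranks of each sample were the same in both tables (Spearman 1).

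Background correction and normalization used the neqc function (limma 3.58.1, R 4.3.3; negative controls taken from the detection p-values, offset 16, quantiles, log2). Of 25697 probes, 15494 with a detection p under 0.05 on at least 2 arrays were kept. Median raw intensity was 117.2 to 127.5 per array, and the number of arrays limits the precision. A probe was given 1 symbol (23978), brought up to date through Entrez identifiers, or none (1719). Any probe listed with several symbols was counted as having none. A gene is represented by its brightest kept probe (10703 genes). All 8 arrays entered 1 limma model of 3 group means (lmFit, eBayes), with 5 residual degrees of freedom and 3.93 from the prior and Benjamini-Hochberg adjustment over kept probes. The procedure was tested on simulated data. Where a probe was undetected on every array of the dimmer group, the fold is a lower bound.

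The members and lists were chosen with earlier results of these data known. Named were the 10 members, at most 4 genes of each other list that passed in a comparison by lowest p, at most 2 fixed direct partners, defining markers of other cell types, and the 5 nearest profiles of Gfap, Osmr and Timp1. S100a8, H2-D1, Gh, Prl and Ttr were named after their values were seen. Alternatives were other background corrections, normalizations, filters, variance models and probe summaries, the replicate number as a block, and each array left out.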

Additional observations from a re-analysis of the deposited data

How the results depend on the processing

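Each result was recomputed under 12 other settings and without each of the 8 arrays. Gfap, Vim and Cd44 lay higher in STZ than in saline in all 20 of these fits, and Timp1 and Osmr in the 19 that measured them; Gfap and Vim lay lower and Glul and S100b higher with leptin than in STZ in all 20. The calls depended more on the setting. Of the 5 members that passed in STZ against saline, 3 (Gfap, Vim and Cd44) did so among probes detected under 0.01 on all arrays, where 8 members were measured, and the same 3 with a robust trend, and leave-one-out fits gave 0 to 5. Of the 4 with leptin against STZ, 2 did so without a detection filter (Vim and Glul) and 2 with only the groups compared (Vim and S100b), and 7 passed with array weights (Cd44, Timp1 and Osmr besides). Leave-one-out fits gave 0 to 5. With leptin against saline, 1 member, Timp1, passed with array weights and with only the groups compared, and leave-one-out fits gave 0 to 1. Across all kept probes, the number that passed in the 3 comparisons was 664, 870 and 314, against 332, 552 and 183 with the strict detection filter, 1659, 1859 and 714 with array weights, and 277 to 1032, 484 to 1234 and 111 to 426 when single arrays were left out. The cause of these shifts was not tested. The strict filter also leaves fewer probes, and the leave-one-out fits hold fewer arrays. Median centring moved the median of all genes in STZ against saline by -0.11.

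Whether the replicate numbers of the sample descriptions pair the samples could not be decided. Arrays of different groups with the same number correlated at -0.22 to 0.092 in their deviations from the group means (6 pairs). Pairs with different numbers spanned -0.315 to 0.315 (15 pairs). With so few arrays per group these deviations are not independent, the saline arrays being exact opposites, and a number recurs within STZ. With the description's number as a replicate block, 1 member (Vim) passed in STZ against saline. In the same fit 2 (Vim and Glul) passed with leptin against STZ and 0 with leptin against saline. The counts across all probes were 336, 474 and 211. Under the block the leptin difference from STZ was -0.025 for Gja1 and -0.0040 for Timp2.

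Differences near 0, which passed in no fit, changed sign. In STZ against saline Gja1 was -0.22 under median centring and -0.028 to 0.098 without single arrays, and Slc1a2 was 0.012 with cyclic loess and -0.16 to 0.097 without single arrays. With leptin against STZ, array weights gave 0.030 for Aldh1l1, -0.054 for Gja1 and 0.027 for Slc1a3. Slc1a3 was 0.0027 in the authors' values and 0.16 under median centring. Without single arrays the same comparison ran from -0.087 to 0.063 for Aldh1l1, -0.33 to 0.12 for Aqp4, -0.066 to 0.097 for Gja1, -0.29 to 0.21 for Nes, -0.051 to 0.0043 for Slc1a3, -0.015 to 0.16 for Slc38a3 and -0.0017 to 0.073 for Timp2. With leptin against saline Gja1 was -0.031 under median centring, and single arrays left out gave -0.15 to 0.30 for Aqp4, -0.033 to 0.13 for Gja1, -0.50 to 0.19 for Lifr and -0.27 to 0.0054 for Timp2. Probes near background, such as those of Osm, Lifr, Mmp12 and Cd109, give small and uncertain differences. Over the single genes named, 79 values under other settings lost their call and 8 gained one, against 1238 that kept direction and side of the threshold; with single arrays left out these counts were 121, 6 and 762.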

Other observations

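The profiles nearest to Gfap, Osmr and Timp1 were sought among 10702 genes by the root mean square difference over the 8 arrays, each profile taken as its difference from its own saline mean. This is a description of 8 arrays and says nothing of shared function or control. Nearest to Gfap were Fam111a (0.22 log2 units), Gpr35 (0.24), Ugt1a10 (0.26), Msn (0.26) and Serpina3n (0.26), a secreted protease inhibitor known from reactive astrocytes. Nearest to Osmr were Clic1 (0.16), Alox5ap (0.16), Cd44 (0.19), Ltb (0.20) and Ifi30 (0.22), of which Alox5ap, Ltb and Ifi30 are known from immune cells. Nearest to Timp1 was Plac8 (0.21), followed at some distance by Cxcl1 (0.54), Ch25h (0.56), Ccl8 (0.61) and Il1b (0.62), genes of chemokines, a sterol enzyme and an inflammatory cytokine.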
